A study of Rattus norvegicus with 4 samples.

Results

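The microRNAs (miRNAs) rno-miR-103 and rno-miR-107 are near-identical small RNAs that are cut from introns of the pantothenate kinase (Pank) genes. They were taken by name from a rat miRNA array, and both members were found among its 350 miRNAs. RNA came from gracilis, a muscle of the thigh, in male rats of the Sprague-Dawley strain. Muscle after 4 h of ischemia followed by reperfusion (ischemia-reperfusion, 2 arrays) was set against muscle from sham-operated rats (2 arrays). Reperfusion lasted 4 h by the sample labels and 24 h by the series text, and which holds is unknown. No genotype, transgene or age is stated for any group, and nothing says that animals were pooled. The series text calls all replicates biological, while the sample labels call those of ischemia-reperfusion experimental, so p-values measure the spread between these arrays, which may in part be technical.

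Pank enzymes phosphorylate pantothenate (vitamin B5), the first and rate-limiting step of coenzyme A synthesis, so both miRNAs lie within genes of energy metabolism. In mice, miR-103 and miR-107 act on insulin sensitivity in liver and fat, with caveolin-1 as a known target. In human cells they repress Dicer, the enzyme that matures miRNAs, and miR-107 represses ARNT, the partner of the hypoxia factor HIF-1α. Both were among the miRNAs raised by low oxygen in human cancer cells, and miR-103 is also used as a reference for normalising miRNA measurements.

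The mature sequences below, from RefSeq (build GRCr8, 5′ to 3′), are shown because they set what the probes could tell apart. Capitals mark the seed, bases 2 to 8, which pairs with target messages.
rno-miR-103: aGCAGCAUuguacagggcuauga
rno-miR-107: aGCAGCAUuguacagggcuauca
Both are 23 bases long and identical at 22 positions. They differ by the substitution G22C of miR-107 relative to miR-103, counted from 1 at the 5′ end, which is the second base from the 3′ end. Of the 724 mature rat miRNAs in the RefSeq table, these 2 alone carry this seed. The files hold no probe sequence, so how far each probe also binds the other miRNA was not tested.

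The 3 precursor hairpins are shown with the mature miRNA in capitals, because miR-103 is made from more than 1 gene.
Mir103a1: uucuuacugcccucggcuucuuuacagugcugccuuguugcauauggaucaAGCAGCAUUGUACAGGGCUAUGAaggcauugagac
Mir103a2: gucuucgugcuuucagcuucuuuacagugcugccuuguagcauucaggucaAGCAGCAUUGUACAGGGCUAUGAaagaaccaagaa
Mir107: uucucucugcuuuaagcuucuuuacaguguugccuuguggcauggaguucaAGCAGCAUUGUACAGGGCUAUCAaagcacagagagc
Mir103a1 lies at chr10:20748474-20748559 on the plus strand inside Pank3, 15.3 kb from the start of that gene. Mir103a2 lies at chr3:138963227-138963312 on the plus strand inside Pank2, 26.8 kb from its start. Mir107 lies at chr1:241750418-241750504 on the minus strand inside Pank1, 57.6 kb from its start. All 3 hairpins are on the strand of their host gene and hold the mature miRNA in their 3′ arm, at bases 52 to 74. Over their whole length the hairpins share 80.2% (Mir103a1 and Mir103a2) to 83.0% (Mir103a2 and Mir107) of aligned bases. The mature miR-103 of both genes is the same sequence, so the array signal of miR-103 cannot be divided between Pank3 and Pank2.

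The 4 arrays differed in brightness and in content before any comparison. They detected 174 and 121 miRNAs after ischemia-reperfusion and 158 and 187 in sham muscle. The 75th percentile of signal over the 78 miRNAs detected on all arrays was 995 and 92.0 units after ischemia-reperfusion, against 3380 and 1171 units in sham muscle. Ischemia-reperfusion replicate 2 stood apart: it detected 0 of 6 skeletal muscle miRNAs, against 5 of 6 on each other array. The summed signal of these muscle miRNAs was 90699 and 8.40 units after ischemia-reperfusion, against 211915 and 113068 units in sham muscle. miR-133b, which acts in muscle differentiation and was the brightest miRNA of the other arrays, gave 75842 units in ischemia-reperfusion replicate 1 and was not detected in replicate 2 (1.93 units), against 102374 and 94649 units in sham muscle. Ischemia-reperfusion replicate 2 also detected 6 of 10 epithelial miRNAs, against 2 in ischemia-reperfusion replicate 1 and 0 in each sham muscle, with summed signals of 341 and 596 units in the ischemia-reperfusion arrays, against −43.0 and 9.73 units in sham muscle. Both epithelial detections of replicate 1, miR-205 and miR-200c, carry scanner errors out of line with the other values, as does miR-21 on sham replicate 1. In contrast, ischemia-reperfusion replicate 1 was close to sham replicate 2, with an SD of 0.22 for the log2 ratios of the 78 miRNAs, while this SD was 1.79 for the pair of ischemia-reperfusion arrays and 1.53 for the pair of sham arrays.

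Both members were detected on every array, and their signals were lowest in ischemia-reperfusion replicate 2. miR-103 gave 172 ± 13.3 and 32.6 ± 3.50 units (scanner error) in ischemia-reperfusion replicates 1 and 2, against 357 ± 28.5 and 215 ± 16.4 units in sham replicates 1 and 2. Each ischemia-reperfusion array was thus dimmer for miR-103 than each sham array, before any allowance for array brightness. miR-107 gave 290 ± 22.5 and 35.8 ± 3.80 units after ischemia-reperfusion, against 630 ± 50.2 and 367 ± 28.3 units in sham muscle. The order of the arrays was the same for both miRNAs. Scanner errors were 7.64% to 10.7% of these signals. Of the 261 signals over 100 units on the arrays, 258 had errors of 5.92% to 11.6%. Those 258 include the members' own signals over 100 units, but not their dimmer signals on ischemia-reperfusion replicate 2. Even on the dimmest array the members lay 15.8 and 17.4 times above the lowest detected signal.

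**Figure D1:**
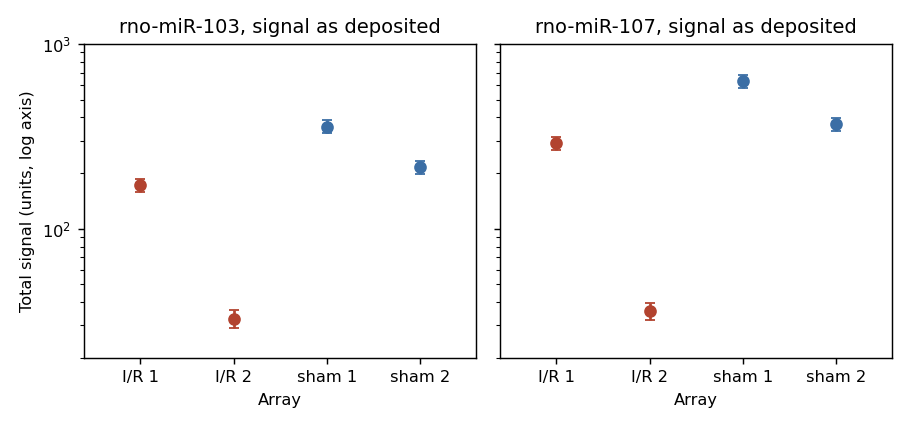
Total signal of rno-miR-103 (left) and rno-miR-107 (right) on each array as deposited, on a log axis, with the scanner error as bars; I/R is ischemia-reperfusion. Both miRNAs were lowest on I/R 2 (32.6 and 35.8 units) and highest on sham 1 (357 and 630 units).

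The raw signals were read against the brightness of the whole array. Against sham replicate 2, the log2 signal of ischemia-reperfusion replicate 2 differed by −2.72 for miR-103 and by −3.36 for miR-107, and the median of the 78 miRNAs by −2.72. Against sham replicate 1 these differences were −3.45 and −4.14, with a median of −3.97. miR-103 thus followed the typical miRNA of that array or lay above it, while miR-107 lay below it in both cases. For ischemia-reperfusion replicate 1 the values against sham replicate 2 were −0.32 and −0.34, with a median of −0.27. Against sham replicate 1 they were −1.06 and −1.12, with a median of −1.65, so both members lay above the typical miRNA there.

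Each array was therefore divided by its own 75th percentile, and levels are given below as log2 of this scaled signal. The scaled level of miR-103 was −2.53 and −1.50 after ischemia-reperfusion and −3.24 and −2.44 in sham muscle. Replicate 2 of ischemia-reperfusion was the highest and sham replicate 1 the lowest, and the groups overlapped, since ischemia-reperfusion replicate 1 minus sham replicate 2 was −0.0892. That gap is smaller than the scanner error of either value (0.11 each, log2). For miR-107 the scaled level was −1.78 and −1.36 after ischemia-reperfusion and −2.42 and −1.67 in sham muscle. The order of arrays was the same, and the groups overlapped again, since ischemia-reperfusion replicate 1 minus sham replicate 2 was −0.11. Scaling exchanged the extremes, so that the dimmest array had the highest scaled level of both members. It left ischemia-reperfusion replicate 1 below sham replicate 2. Over the miRNAs detected throughout, the median scaled difference of the dimmest array was 1.23 against sham replicate 1 and 0.95 against sham replicate 2. For miR-103 these differences were 1.75 and 0.95, and for miR-107 they were 1.06 and 0.31. miR-107 thus lay below the typical miRNA there, and miR-103 lay above it only against sham replicate 1. The highest scaled level is therefore not read as a rise of the members.

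**Figure D2:**
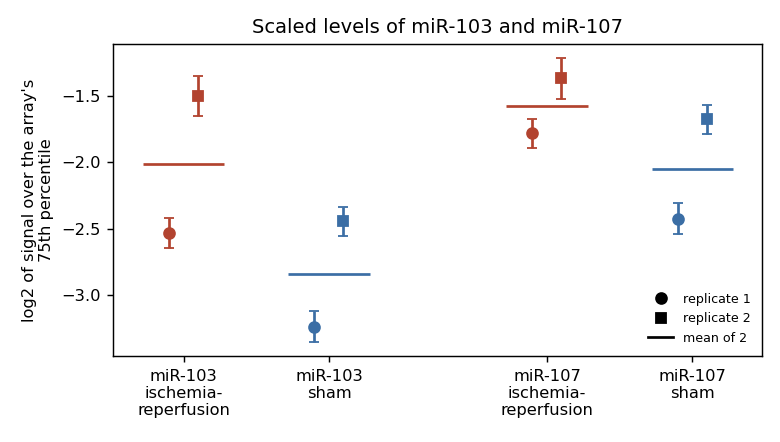
Scaled log2 levels of miR-103 and miR-107, with circles for replicate 1, squares for replicate 2, the scanner error as bars and a line at the mean of 2 arrays. In both miRNAs the ischemia-reperfusion points (−2.53 and −1.50, and −1.78 and −1.36) overlap the sham points (−3.24 and −2.44, and −2.42 and −1.67).

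The comparison of the groups asked whether these metabolic and hypoxia-linked miRNAs differ after ischemia and reperfusion, and neither passed the test. The mean scaled level of miR-103 was −2.02 ± 0.73 after ischemia-reperfusion and −2.84 ± 0.56 in sham muscle (log2, SD, n = 2 each). The log2 difference was 0.83 ± 0.98 (SE), with a 95% interval of −1.70 to 3.35 and a limma adjusted p of 0.817. miR-107 averaged −1.57 ± 0.29 after ischemia-reperfusion and −2.05 ± 0.53 in sham muscle (log2, SD, n = 2 each). Its log2 difference was 0.48 ± 0.93 (SE), with a 95% interval of −1.91 to 2.87 and a limma adjusted p of 0.841. The miR-103 replicates differed by 1.04 within ischemia-reperfusion and by 0.80 within sham, and those of miR-107 by 0.42 and 0.75. For each member 1 of these gaps was larger and 1 slightly smaller than the difference between groups. These intervals hold changes of several fold in both directions, so the arrays do not show that the members stayed level. In bulk muscle, fewer cells of a type and less RNA per cell cannot be told apart.

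Read against all miRNAs, the members were ordinary. limma with Benjamini-Hochberg adjustment called 0 of the 159 tested miRNAs (0%), 2 had an unadjusted p under 0.05, and neither was a member. The groups did not overlap, with ischemia-reperfusion the higher, in 11.9% of tested miRNAs, and with it the lower in 13.2%, and 0 of the 2 members were among either. The median log2 difference of all tested miRNAs was 0.45, so miR-103 lay 0.37 above the median miRNA and miR-107 lay 0.0231 above it. In the order of differences, 52 of the 159 had a larger one than miR-103 and 76 a larger one than miR-107. miR-103 is used as a reference, and its scaled level ranged over 1.75 log2 units on these 4 arrays. Of the 78 miRNAs detected throughout, 37 had a smaller range (median range 1.79). miR-107 ranged over 1.06 units, and 14 of the 78 had a smaller range. Both ranges run from sham replicate 1 to ischemia-reperfusion replicate 2, between which the median scaled difference of the 78 miRNAs was itself 1.23. They thus hold a difference between arrays that scaling left, and do not measure how steady miR-103 is.

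The sign of the member differences was not settled by these arrays. Without ischemia-reperfusion replicate 2, the array without muscle miRNAs, the log2 difference was 0.31 for miR-103 and 0.27 for miR-107, beside a median of 0.0561 for all tested miRNAs. These positive values rest on sham replicate 1. Ischemia-reperfusion replicate 1 differed from it by 0.71 and 0.64, and from sham replicate 2 by −0.0892 and −0.11. Without ischemia-reperfusion replicate 1 the log2 difference was 1.35 and 0.69, beside a median of 0.76. Without sham replicate 1 the values were 0.43 and 0.10, and without sham replicate 2 they were 1.23 and 0.85. miR-107 turned negative when arrays were scaled by the percentile of all miRNAs (−0.29), by the median (−0.0720), by quantile normalization (−0.14) or not at all (−2.24). Under the same settings miR-103 was at 0.0598, 0.28, 0.0194 and −1.89. The median of all tested miRNAs moved along, to −0.31, −0.0951, −0.35 and −2.18 in the same order of settings. What part the missing muscle miRNAs and the brightness of replicate 2 have in the differences was not tested.

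**Figure D3:**
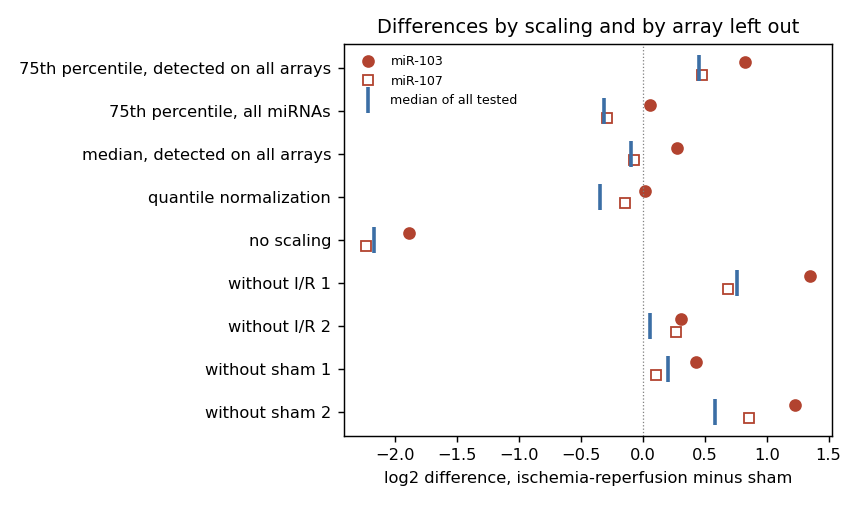
Log2 differences, ischemia-reperfusion minus sham, of miR-103 (filled circles) and miR-107 (open squares) under 5 scalings and with each array left out, with the median of the 159 tested miRNAs as a bar. The values run from −1.89 to 1.35 for miR-103 and from −2.24 to 0.85 for miR-107, and the bars move with them.

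The ratio of the paired signals within an array is free of the array's scale factor, and it was higher on 1 array than on the other 3. The log2 ratio of miR-103 to miR-107 was −0.75 ± 0.16 and −0.13 ± 0.22 (scanner error) in ischemia-reperfusion replicates 1 and 2, against −0.82 ± 0.16 and −0.77 ± 0.16 in sham replicates 1 and 2. Only the change of this ratio between arrays is read here, since the size of the ratio also depends on the probes. On 3 arrays it agreed to within 0.0629, and on ischemia-reperfusion replicate 2 it was 0.65 ± 0.24 (scanner error) higher than the mean of the other 3. That error covers the scan and not the variation between animals, and 79.4% of the 3003 pairs that the 78 miRNAs form shifted by at least as much on this array. Between groups the mean ratio was −0.44 ± 0.44 after ischemia-reperfusion and −0.79 ± 0.0327 in sham muscle (SD, n = 2 each), a difference of 0.35. Ischemia-reperfusion replicate 1 (−0.754) and sham replicate 2 (−0.771) lay closer than the scanner error of either (0.16 each), so the groups are not read as apart. The exact two-sided permutation test gave p = 0.333, which is the smallest that 2 arrays against 2 allow. After quantile normalization the difference was 0.16, with an exact p of 0.667. Without ischemia-reperfusion replicate 2 the difference was 0.0398, less than the scanner error of a single ratio. A shift between groups at least as large as 0.35 was present in 80.0% of the 3003 pairs, whose median shift was 0.97.

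**Figure D4:**
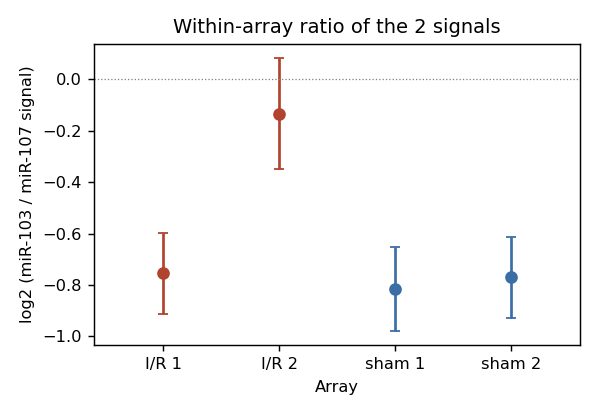
Log2 ratio of the miR-103 to the miR-107 signal on each array, with the propagated scanner error as bars; I/R is ischemia-reperfusion. I/R 1, sham 1 and sham 2 lie between −0.82 and −0.75, and I/R 2 lies at −0.13.

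The miRNAs of the miR-15/16 family carry the members' first 7 bases shifted by 1 position, and most of them had negative differences. They are printed here, with their seeds in capitals, because the shift of the shared bases can be read from them.
rno-miR-15b: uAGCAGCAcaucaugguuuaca
rno-miR-16: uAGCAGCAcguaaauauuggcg
rno-miR-195: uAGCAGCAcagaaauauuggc
rno-miR-322: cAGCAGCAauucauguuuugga
rno-miR-497: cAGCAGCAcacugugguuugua
rno-miR-503: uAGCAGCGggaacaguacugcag
These are the 5p mature forms in RefSeq. The run AGCAGCA begins at base 1 of miR-103 and at base 2 of all these except miR-503, with which miR-103 shares only 6 bases.

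Of the 6 family members on the array, 5 were tested and none was called. Of these, 1 log2 difference was positive and 4 were negative, with a median of −0.99, against 98 positive and 61 negative over all tested miRNAs with a median of 0.45. miR-15b, which slows the cell cycle like its relatives, gave 173 and 16.7 units after ischemia-reperfusion, against 309 and 170 units in sham muscle. Its difference was 0.63, near those of both members. miR-16, a regulator of cyclins and Bcl2, gave 2015 and 89.4 units after ischemia-reperfusion against 5156 and 2460 units in sham muscle, a log2 difference of −0.35 that was 0.18 without ischemia-reperfusion replicate 2. miR-15b and miR-16 also lie close together on the plus strand (chr2:155555197-155555218 and chr2:155555343-155555364). Their differences had opposite signs over all 4 arrays, and both were positive without ischemia-reperfusion replicate 2 (0.60 and 0.18). On the scaled level the ischemia-reperfusion arrays were the higher pair for miR-15b, as in 11.9% of tested miRNAs. They were the lower pair, which is the case in 13.2% of tested miRNAs, for miR-195 (−1.14) and miR-497 (−0.99), which come from 1 cluster and act in cell cycle exit of muscle cells. For miR-195 ischemia-reperfusion replicate 1 lay barely lower, at −0.87 against −0.81 in sham replicate 2. miR-322, which promotes muscle differentiation in mice, gave 69.0 and −1.66 units after ischemia-reperfusion, not detected on replicate 2, against 689 and 59.5 units in sham muscle. Its difference rests on the floor set for undetected signals. It was −1.37 with that array's own limit and −0.55 without the array. miR-503 was detected on ischemia-reperfusion replicate 1 and sham replicate 2 only and was not tested. Without ischemia-reperfusion replicate 2 the family median was −0.21, with 2 positive and 3 negative.

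**Figure D5:**
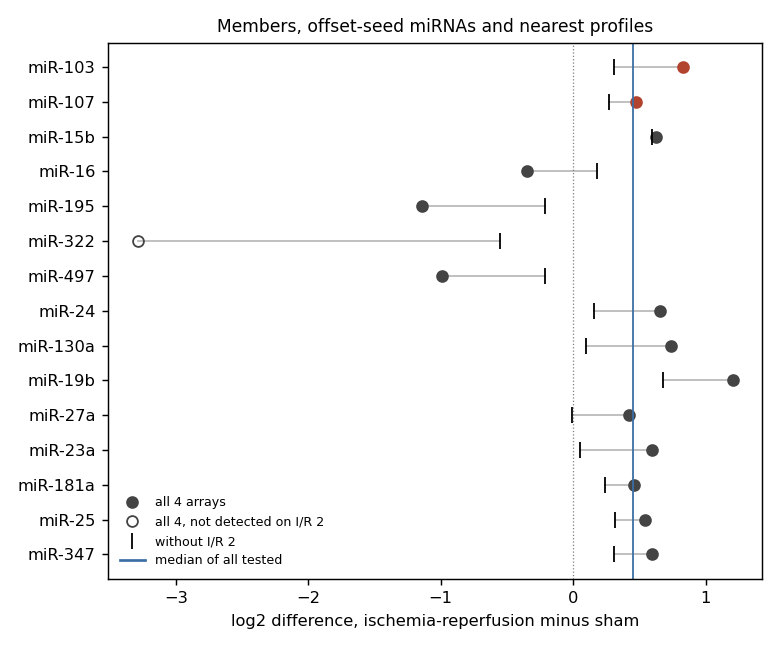
Log2 differences, ischemia-reperfusion minus sham, of the members (red), the tested miR-15/16 family and the miRNAs of nearest profile, over all 4 arrays (points) and without I/R 2 (bars), with the median of all tested miRNAs (0.45) as a line. The members lie at 0.83 and 0.48, miR-195 and miR-497 at −1.14 and −0.99, and the open point of miR-322 depends on the floor.

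Other hypoxia-linked miRNAs did not pass either. Of the 14 tested besides the members, 10 had a positive and 4 a negative difference, with a median of 0.44, which is close to the 0.45 of all tested miRNAs. The lowest p belonged to miR-21, a miRNA of injured and remodelling tissue (4.58), miR-210, the main target of HIF-1 among miRNAs (2.34), miR-195 (−1.14) and miR-199a-5p, which represses HIF-1α in heart muscle cells (1.06). Without ischemia-reperfusion replicate 2 the differences were 1.51, 0.50, −0.22 and 0.12. The list then had a median of 0.0196, with 7 positive and 7 negative. For miR-21 the scanner error on sham replicate 1 was 212 units at a signal of 276 units.

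No metabolic miRNA passed the test. Of 16 tested, 10 had a positive and 6 a negative difference (62.5% positive, against 61.6% of all tested miRNAs), with a median of 0.0956. miR-378, from an intron of Ppargc1b and linked to mitochondrial metabolism, was at 991 units in ischemia-reperfusion replicate 1 and was not detected in replicate 2 (2.08 units), against 3075 and 1292 units in sham muscle. Without that array its difference was −0.00905. miR-34a, a p53 target that acts on the NAD-dependent enzyme SIRT1, differed by 1.30 and by −0.0594 without replicate 2. miR-29c, which represses collagens, was at −0.85, and let-7d was at −0.80, and without replicate 2 they were at −0.30 and −0.27. These 4 were named for their low p, and relatives in the list differed from them. let-7a (0.36), let-7b (0.65), let-7e (0.78), let-7f (0.067) and let-7i (0.68) were positive, and let-7c was negative (−0.37). miR-29a was at −0.026 and miR-29b at 0.012. Without replicate 2 the list had a median of −0.15, with 5 positive and 11 negative, beside 86 positive and 73 negative over all tested miRNAs.

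Other miRNAs from introns were not called either. Of 19 tested, 11 had a positive and 8 a negative difference (57.9% positive, against 61.6% of all tested miRNAs). Their median was 0.14, against 0.45 for all tested miRNAs. On ischemia-reperfusion replicate 2, 11 of the 19 were detected, as were 93 of all 159 tested miRNAs. The heart and slow-muscle miRNA miR-499, from an intron of Myh7b, gave 112 and 0.540 units after ischemia-reperfusion, the second not detected, against 721 and 122 units in sham muscle. miR-30e, from Nfyc, was at −1.58 over all arrays and −0.16 without replicate 2. miR-338, from the nerve-expressed gene Aatk, was at 1.55 and at −0.11 without it. Unlike miR-499 and miR-378, both Pank miRNAs were above detection on that array. Without it the median of the list was −0.11, with 6 positive and 13 negative. All tested miRNAs then had a median of 0.0561, with 86 positive and 73 negative, and both members were positive (0.31 and 0.27).

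The miRNAs whose profile over the 4 arrays was most like that of each member were found by the root mean square distance between log2 scaled levels, each centred on its own mean, among the 77 others detected throughout. Nearest to miR-103 were miR-24 (distance 0.13), miR-130a (0.16), miR-19b (0.19), miR-27a (0.22) and miR-23a (0.23), where the median distance was 0.70. miR-23a, miR-27a and miR-24 belong to 1 gene cluster, miR-130a acts in endothelial cells and miR-19b is part of the miR-17-92 cluster. Nearest to miR-107 were miR-181a (0.0230), miR-25 (0.0617), miR-347 (0.12), miR-15b (0.15) and miR-27a (0.17), with a median of 0.72. miR-181a is known from lymphocyte and muscle differentiation and miR-25 lies in an intron of Mcm7. The members were not each other's nearest profile: miR-107 was in place 9 for miR-103 and miR-103 in place 10 for miR-107, at a distance of 0.28. This distance rests mostly on ischemia-reperfusion replicate 2, since on the other 3 arrays their log2 ratio agreed to within 0.0629. The distances describe 4 arrays, and in both member profiles ischemia-reperfusion replicate 2 and sham replicate 1 lay farthest from the mean.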

How the data were processed

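Total RNA was labelled with Cy3, per the labels' protocols, and the submitters' processing notes name Agilent Feature Extraction 9.5.3. The authors deposited 1 total intensity per miRNA with its scanner error and a detection flag, per the file headers. These intensities are linear, background-subtracted and not scaled between arrays. The deposited value table held the same intensities (0 of 1400 values differed, tolerance 0). No source used here names the array design, the slides or the scan dates. After 22 control features were left out, signals were divided by the array's own 75th percentile, taken over the 78 miRNAs that every array detected, floored at the lowest scaled signal of a detected miRNA (log2 −9.32) and put on a log2 scale. The 159 miRNAs detected on both arrays of a group were tested with limma 3.58.1 in R 4.3.3 (lmFit, eBayes, two-sided, Benjamini-Hochberg, threshold 0.05). The fit was also run on simulated data. Their noise was far below that between the replicate arrays here (SD of log2 ratios 1.79 and 1.53). That run checks the code and cannot tell what the fit would find on these arrays. The ratio of the members was tested by exact permutation over samples (scipy 1.17.1). With 2 arrays per group, their number limits the precision.

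Groups came from the sample titles. Members, lists and the rule for named miRNAs were chosen with earlier results of these data known. The rule took both members, the miR-15/16 list, the 4 tested miRNAs of lowest p in each other list and the 5 nearest profiles of each member, with miR-133b and miR-205 as markers of the array that stands apart. Sequences and positions are from RefSeq's GRCr8 tables. RefSeq lists no mature 3p form for Mir103a1, so it was located by matching the miR-103 sequence in that hairpin. The tables give gene spans without exons, so intronic position is background knowledge. Alternatives were other scalings, floors, filters and variance models, the replicate number as a block, and each array left out.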

Additional observations from a re-analysis of the deposited data

How the results depend on the processing

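Over the 18 alternatives run for each member no adjusted p passed the threshold. The miR-103 difference (0.83) was 0.0598 with the percentile of all miRNAs, 0.28 with the median, 0.0194 with quantile normalization and −1.89 without scaling, and positive under all others. The miR-107 difference (0.48) was negative under scaling to all miRNAs' 75th percentile (−0.29), to the median (−0.0720), by quantiles (−0.14) and without scaling (−2.24). Leaving out 1 array gave 0.31 to 1.35 for miR-103, 0.10 to 0.85 for miR-107 and 0.0398 to 0.66 for their ratio, which was 0.16 with quantile normalization. The count of called miRNAs was 2 without scaling and 0 to 11 with 1 array left out (11 without ischemia-reperfusion replicate 1, 0 without each other array). It was 0 under every other alternative, and none of those called was a member. The 2 alternatives that leave out 3 miRNAs of unusual scanner error or cross the replicate numbers were chosen after seeing the data. The family median (−0.99) was −1.76 with the percentile of all miRNAs, −3.71 without scaling and −1.77 to −0.21 with 1 array left out. The hypoxia median (0.44) was −0.33 with the percentile of all miRNAs, −0.11 with the median, −2.28 unscaled, and 0.0196 to 0.94 with 1 array left out. The metabolic median (0.0956) was −0.67, −0.45 and −2.57 under these 3 scalings, −0.0341 with quantile normalization and −0.15 to 0.13 with 1 array left out. The intronic median (0.14) was −0.63, −0.41 and −2.48 under them, −0.70 with quantile normalization, −0.22 with undetected miRNAs at their array's limit and −0.11 to 0.52 with 1 array left out. The cause of these changes was not tested. Labels do not say that equal replicate numbers share a day or litter, and deviations of same-numbered arrays correlated at 0.0973 over 159 miRNAs and at −0.22 over the 78 detected throughout. With the replicate block the miR-103 and miR-107 differences were 0.83 and 0.48 with limma adjusted p of 0.863 and 0.889, and 0 miRNAs were called, as with the crossed numbers.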

Other observations

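The scanner error followed the signal closely on all arrays, with 3 exceptions. Of 261 signals over 100 units, 258 had an error of 5.92% to 11.6% of the signal (median 7.60%), and all 8 values of miR-103 and miR-107 had one of 7.64% to 10.7%. On ischemia-reperfusion replicate 1, miR-205 had an error of 2.50 units at a signal of 225 units (1.11%), and miR-200c had an error of 2.47 units at 122 units (2.02%). On sham replicate 1, miR-21 had an error of 212 units at 276 units (76.9%). The deposited signals of miR-205 and miR-200c on ischemia-reperfusion replicate 1 are also the only 2 of 1400 written with 8 significant digits, where all others have at most 6. The reason is not given in the sources used here and was not tested. miR-200c and miR-21 are named here after their values were seen. Without these 3 miRNAs the log2 difference was 0.85 for miR-103 and 0.50 for miR-107, 0 miRNAs were called by limma, and 0 had an unadjusted p under 0.05.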
